A study of Mus musculus with 6 samples.

Results

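Fat cell and triglyceride storage genes were followed in injured quadriceps muscle. The set was a fixed list of 10 symbols, Adipoq, Plin1, Plin4, Fabp4, Pparg, Lpl, Lipe, Cidec, Cfd and Cd36, and all 10 were among the 14016 rows of the deposited expression table. The muscle came from 6 mice, 3 labelled WT and 3 labelled GATA-1 mutant, the ΔdblGATA line, in which eosinophils fail to form because Gata1, a blood cell regulator, has lost a GATA site of its promoter. All mice had volumetric muscle loss, a surgical removal of part of the quadriceps, received no implant, and were sampled at day 7. The methods describe the WT animals as young adult female C57BL/6 mice. The methods fill the control wound with saline. Gata1 was not listed in the table, so it gave no check of the genotype labels.

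Fat cells store fatty acids as triglyceride in a lipid droplet. Lipoprotein lipase frees fatty acids from circulating lipoproteins, CD36 and fatty acid binding proteins take them up and carry them, perilipins and CIDEC coat and enlarge the droplet, and hormone-sensitive lipase releases the fatty acids again. The nuclear receptor PPARγ directs much of this programme. In skeletal muscle, fat cells can arise from fibro-adipogenic progenitors after injury. Several of the 10 genes are not particular to fat cells. For example, Lpl and Cd36 are also used by muscle fibres, Cd36 and Fabp4 by capillary endothelium, and Lpl, Cd36, Fabp4 and Pparg by macrophages. Whether the other genes of the set, such as Plin4 and Lipe, came from fat cells in this muscle was not tested.

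The quantity used here is one value per gene, the mean log2 CPM that the authors computed over the samples of their fit, both genotypes together. It has no SD and no value per mouse, the depth per sample is unknown, and whether a gene differed between WT and ΔdblGATA muscle was not analysed here. In bulk muscle, fewer cells of a type and less RNA per cell cannot be told apart. Levels of different genes were compared here per kilobase of the longest coding transcript, written below as log2 CPM per kb, and folds that another choice of transcript length turned or moved by over 1.5 times are given with that value. A difference between genes has no replicate error here and was not tested.

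The labelled tissue was checked against its defining genes. All 10 skeletal muscle fibre markers were listed, with a median of 10.77 log2 CPM per kb against 2.28 for the 13935 genes with a transcript length. Acta1, skeletal actin, stood at 13.77 log2 CPM per kb and Ttn, titin, was the lowest of them at 5.92. The 10 muscle genes made up 8.66% of the summed CPM per kb of all those genes, and the 10 fat and lipid storage genes 0.258%. With the longest coding transcript, Fabp4 was the largest part of the latter share, at 632 CPM per kb against 265 for Cfd, the next gene. The level of Fabp4 fell from 9.30 to 7.06 log2 CPM per kb with the longest transcript of any kind, below Cfd and Lpl. With the median transcript length Fabp4 stood at 7.79, again below both. The shares under these other lengths were not calculated.

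The fat and lipid storage genes had a median of 5.51 log2 CPM per kb, and 8 of 10 lay above the median of all genes. Of the 10 genes, 5 ranked in the top 10% of genes per length. Fabp4, Cfd and Lpl stood highest, Adipoq, Cd36 and Cidec followed, Lipe and Plin4 came next, and Pparg and Plin1 were lowest. The range ran from 9.30 log2 CPM per kb for Fabp4 to -0.63 for Plin1.

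**Figure D1:**
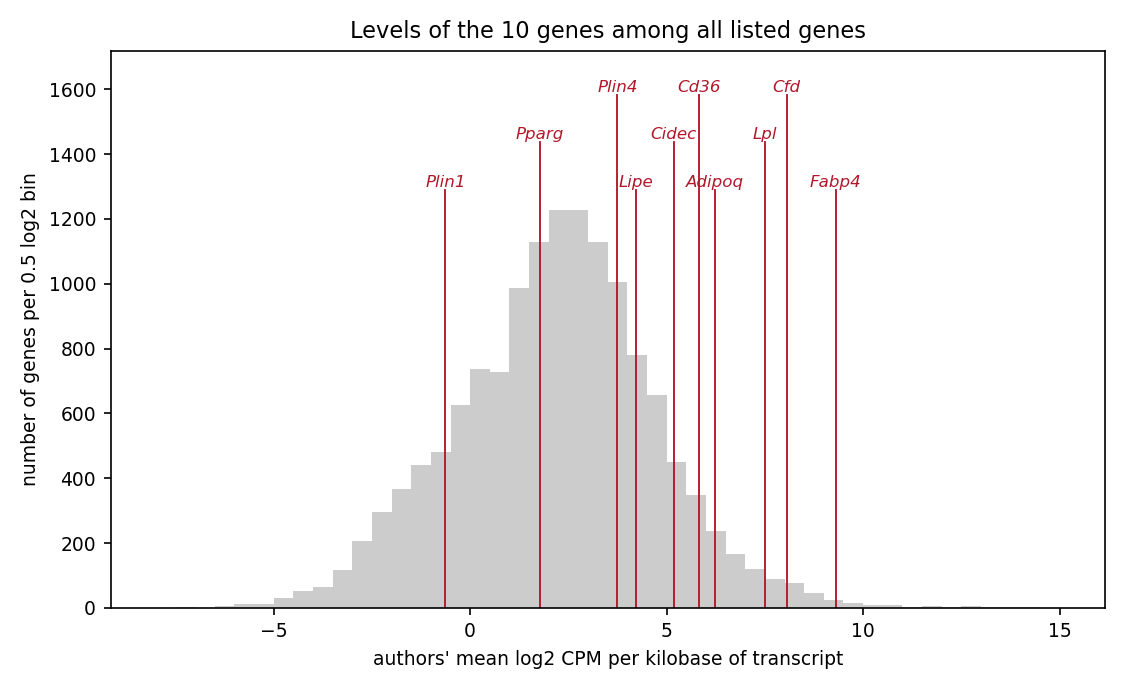
Histogram of the authors' mean log2 CPM per kilobase of transcript for 13935 genes (x axis, log2 scale), as the number of genes per bin (y axis), with a red line at each of the 10 fat and lipid storage genes. Plin1 at -0.63 and Pparg at 1.78 lie below the median of 2.28, and the other 8 genes lie above it.

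Among the secreted products, Adipoq encodes adiponectin, a hormone made by fat cells. Its gene lies on chromosome 16 of GRCm38 (23146536 to 23158028, plus strand). Its authors' mean was 6.60 log2 CPM, equal to 97.2 CPM, and its level per length was 6.23 log2 CPM per kb. This placed it above 95.1% of genes per length. Cfd encodes adipsin, the complement factor D protease that fat cells secrete (chromosome 10, 79890853 to 79892655, plus strand). The authors' mean for Cfd was 7.93 log2 CPM. Its level per length of 8.05 log2 CPM per kb was 3.53-fold that of Adipoq. Of the other fat cell hormones, resistin (Retn) stood at 4.71 and leptin (Lep) at 1.44 log2 CPM per kb. Adipoq was thus 2.86-fold higher than Retn per length.

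The uptake and transport genes held 3 of the 5 highest levels. Fabp4, the fatty acid binding protein of fat cells and macrophages (chromosome 3, 10204088 to 10208576, minus strand), had a mean of 9.14 log2 CPM, or 566 CPM, and 9.30 log2 CPM per kb. Only the longest coding transcript of 896 nt entered this value, and with the longest transcript of any kind it was 7.06. Lpl, lipoprotein lipase (chromosome 8, 68880491 to 68907448, plus strand), had a mean of 9.53 log2 CPM, or 742 CPM, and 7.49 log2 CPM per kb. Cd36, the fatty acid translocase (chromosome 5, 17781690 to 17888801, minus strand), had a mean of 7.60 log2 CPM and 5.83 log2 CPM per kb. Per length, Fabp4 was 11.1-fold above Cd36, which became 2.34-fold with the longest transcript of any kind and 3.07-fold with the median transcript length.

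The genes that work beside these were listed as well. Fabp3, the muscle and heart fatty acid binding protein, stood at 8.16 log2 CPM per kb and Fabp5, another family member, at 5.72. Fabp4 was 12.0-fold above Fabp5 per length. It was 2.20-fold above Fabp3 with the longest coding transcript, but Fabp3 was 2.15-fold above Fabp4 with the longest transcript of any kind and 1.30-fold above it with the median length, so their order was not settled. Fabp3 shares 50.1% and Fabp5 33.1% of its 31-base words with other genes, so both levels are uncertain, whereas Fabp4 shares 0%. Lmf1, which matures the lipase, stood at 3.12 log2 CPM per kb, and Gpihbp1, which anchors it on capillaries, at 3.35. Angptl4, an inhibitor of the lipase, stood at 3.41 log2 CPM per kb, and Lpl was 17.0-fold higher per length, or 10.6-fold with the median transcript length. Vldlr, the very low density lipoprotein receptor, was the highest of the lipase partners at 3.83. Apoc2, which encodes the activator of the lipase, stood at -0.26 log2 CPM per kb but shares 88.5% of its words with other genes. The 8 uptake and binding genes had a median of 6.28 log2 CPM per kb, with Fabp3 highest and the transporter Slc27a4 lowest at 2.46.

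The lipid droplet coat genes were far apart. Plin1 encodes perilipin 1, the main coat protein of the fat cell droplet and the gate for lipolysis (chromosome 7, 79720218 to 79732903, minus strand). Its authors' mean was 0.87 log2 CPM, or 1.82 CPM, and its level per length of -0.63 log2 CPM per kb was above that of only 14.0% of genes. Cidec, which fuses and enlarges droplets (chromosome 6, 113424634 to 113435760, minus strand), had a mean of 5.97 log2 CPM and 5.18 log2 CPM per kb. Plin4, a perilipin of small droplets (chromosome 17, 56100591 to 56109803, minus strand), had a mean of 6.27 log2 CPM and 3.75 log2 CPM per kb. Per length, Plin1 stood below Cidec by 56.2-fold, below Adipoq by 116-fold and below Plin4 by 20.8-fold. With the median transcript length these folds were 35.7, 75.4 and 9.55.

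Of the 31-base words in the longest coding transcript of Plin1, 2.98% occur in other genes, and the part of shared reads in its level was not tested. Plin1 was the lowest of the 10 genes under all 3 choices of transcript length. The transcript set that the authors counted against is not given. Whether every transcript of Plin1, or of any other gene, entered its level could therefore not be checked. A mean of log values can be low because every sample is low or because some samples are very low, and these could not be told apart for Plin1. Means under 1 CPM were listed for 1198 genes (8.55%), so each of these genes was below 1 CPM in some sample. The lowest mean was -4.08 log2 CPM. The methods keep only genes above 1 CPM in at least 3 samples. Whether the listed genes met that filter could not be checked without values per sample. The mean of Plin1 was just above 1 CPM.

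The promoter windows below show these contrasting members, Adipoq, Cidec and Plin1, with the fat cell regulator Pparg. They run from 250 bases before to 50 after a RefSeq start site (GRCm38.p6). Capitals mark 4 short motifs searched on both strands, the TATA box TATAAA, the CCAAT box CCAAT, the GC box GGGCGG and the nuclear receptor motif AGGTCA, none of which holds another. The windows are chr16:23146286-23146585 (plus strand) for Adipoq, chr6:113435711-113436010 (minus strand) for Cidec, chr7:79732727-79733026 (minus strand) for Plin1 and chr6:115421816-115422115 (plus strand), the most downstream of 3 listed starts, for Pparg.
Adipoq: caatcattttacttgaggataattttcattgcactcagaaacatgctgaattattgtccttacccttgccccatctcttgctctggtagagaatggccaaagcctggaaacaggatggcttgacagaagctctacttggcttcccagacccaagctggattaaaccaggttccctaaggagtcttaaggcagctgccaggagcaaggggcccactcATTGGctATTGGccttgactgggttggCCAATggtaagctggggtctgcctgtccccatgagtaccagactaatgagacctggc
Cidec: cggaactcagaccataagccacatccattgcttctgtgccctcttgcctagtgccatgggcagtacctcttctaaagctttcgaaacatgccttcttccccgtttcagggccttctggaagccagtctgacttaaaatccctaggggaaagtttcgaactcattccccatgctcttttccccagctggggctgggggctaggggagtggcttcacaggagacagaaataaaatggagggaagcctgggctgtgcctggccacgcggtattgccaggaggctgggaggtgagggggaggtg
Plin1: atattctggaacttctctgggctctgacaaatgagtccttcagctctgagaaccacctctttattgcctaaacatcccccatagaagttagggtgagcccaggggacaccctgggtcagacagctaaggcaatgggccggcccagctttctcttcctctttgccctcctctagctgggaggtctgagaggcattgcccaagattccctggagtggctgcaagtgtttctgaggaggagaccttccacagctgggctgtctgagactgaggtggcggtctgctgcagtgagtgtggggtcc
Pparg: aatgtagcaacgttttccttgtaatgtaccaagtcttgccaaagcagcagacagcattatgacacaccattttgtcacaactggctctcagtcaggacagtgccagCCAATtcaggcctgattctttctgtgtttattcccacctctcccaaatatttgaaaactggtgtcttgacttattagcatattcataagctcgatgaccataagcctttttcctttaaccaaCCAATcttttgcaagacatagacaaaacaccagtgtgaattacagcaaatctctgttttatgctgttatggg

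RefSeq windows were matched for 8 of the 10 genes, with 12 windows in all. Cidec, Lipe and Pparg had more than 1 window, so the windows are not separate genes. CCAAT occurred in 5 of these 12 windows and in 37.4% of all 32851 windows of this length. AGGTCA occurred in 3 of 12 against 16.3% of all windows, the GC box in 4 of 12 against 35.7%, and TATAAA in 1 of 12 against 13.6%. The windows with AGGTCA belong to Cd36 and Pparg only, and the Pparg window printed above does not hold it. The Adipoq window holds 3 CCAAT boxes, at -34 and -27 on the opposite strand and at -7 on the gene's strand, counted to the leftmost base as printed. The windows of Plin1, Cidec and Cfd hold none of the 4 motifs. A match is a description of the letters and was not tied to any level.

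Other perilipin and droplet genes were listed too. Plin2, the widely expressed droplet coat gene, stood at 5.58 log2 CPM per kb, 73.8-fold above Plin1, Plin3 at 3.80 and Plin5, a perilipin of oxidative muscle, at 2.66. Cidea, the relative of Cidec best known from brown fat, stood at 4.39. Of 9 droplet coat and fusion genes 8 were listed, with Fitm1, a droplet-forming gene of muscle, highest at 7.48 and Hilpda lowest at 2.28. Cideb was not listed.

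Lipe encodes hormone-sensitive lipase (chromosome 7, 25379527 to 25398710, minus strand), which cleaves diglyceride. Its authors' mean was 6.12 log2 CPM and its level 4.23 log2 CPM per kb. Pnpla2, the triglyceride lipase that acts before it, stood at 6.56 log2 CPM per kb, 5.03-fold higher. Abhd5, the coactivator of Pnpla2, stood at 3.65, but 29.5% of its words are shared. Mgll, which cleaves the last fatty acid, stood at 4.63. All 6 triglyceride breakdown genes lay above the median of all genes, and Pnpla3 was lowest at 3.57. In triglyceride and fatty acid synthesis all 13 genes were listed and 11 lay above that median, from Gpam, the first acyltransferase, at -1.70 to Scd1, a fatty acid desaturase, at 8.08 log2 CPM per kb.

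Pparg encodes PPARγ (chromosome 6, 115360951 to 115490399, plus strand). Its authors' mean was 2.87 log2 CPM, or 7.29 CPM, and its level of 1.78 log2 CPM per kb was above that of 41.6% of genes. The table sums its transcripts, so the fat cell isoform and the more widespread isoform were not separated. Its partner receptor gene Rxra stood at 4.80 log2 CPM per kb, 8.12-fold higher. The fat cell regulators Cebpa and Cebpb stood at 4.87 and 4.97 log2 CPM per kb, and which was higher changed with the median transcript length. Of 11 fat cell transcription factors, all listed, 7 lay above the median of all genes, and Prdm16, a brown fat regulator, was lowest at -0.55 log2 CPM per kb.

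All 7 genes fixed as fat cell markers were listed, which are Adipoq, Plin1, Cidec, Lep, Retn, Adrb3 and Acvr1c. Their median was 2.49 log2 CPM per kb and 4 of 7 lay above the median of all genes. Adipoq was 91.4-fold above Acvr1c, a fat cell receptor, per length, or 21.1-fold with the median transcript length. In the wider list of 13 hormones and other fat cell genes, all listed, the median was 4.71 and Gpd1, a glycerol phosphate dehydrogenase that muscle fibres also use, was highest at 7.65 log2 CPM per kb. The brown fat gene Ucp1 stood at 2.63 log2 CPM per kb.

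**Figure D2:**
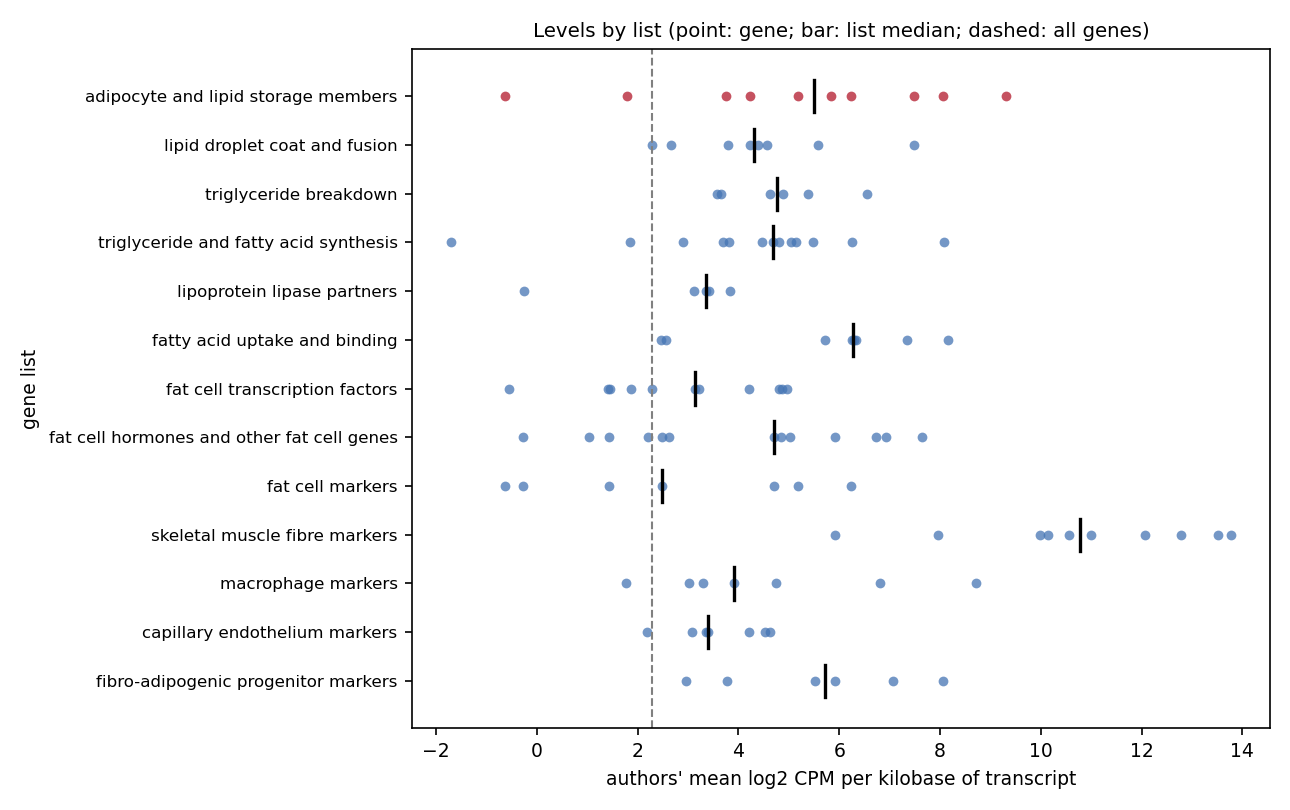
The authors' mean log2 CPM per kilobase of transcript (x axis, log2 scale) for each listed gene (points), by gene list (y axis), with the list median as a bar and the median of all genes, 2.28, as a dashed line. The 10 fat and lipid storage genes in red spread from -0.63 to 9.30, and their median of 5.51 lies below that of the muscle fibre markers at 10.77.

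Markers of the other cell types that use some of these genes were present too. All 7 macrophage markers were listed, Adgre1 under its older symbol Emr1, with a median of 3.92 log2 CPM per kb and a range from Fcgr1 at 1.77 to Lyz2 at 8.72. Lyz2 shares 32.8% of its words with other genes, mostly Lyz1, so the top of this range is uncertain. All 7 capillary endothelium markers were listed with a median of 3.40 and a range from Emcn at 2.19 to Pecam1 at 4.63. All 6 fibro-adipogenic progenitor markers were listed with a median of 5.72 and a range from Pdgfra at 2.95 to Dcn at 8.07. How much each cell type, muscle fibres included, gave to the level of any fat and lipid storage gene was not tested. This holds for Plin4 and Lipe as well as for Lpl, Cd36, Fabp4 and Pparg.

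**Figure D3:**
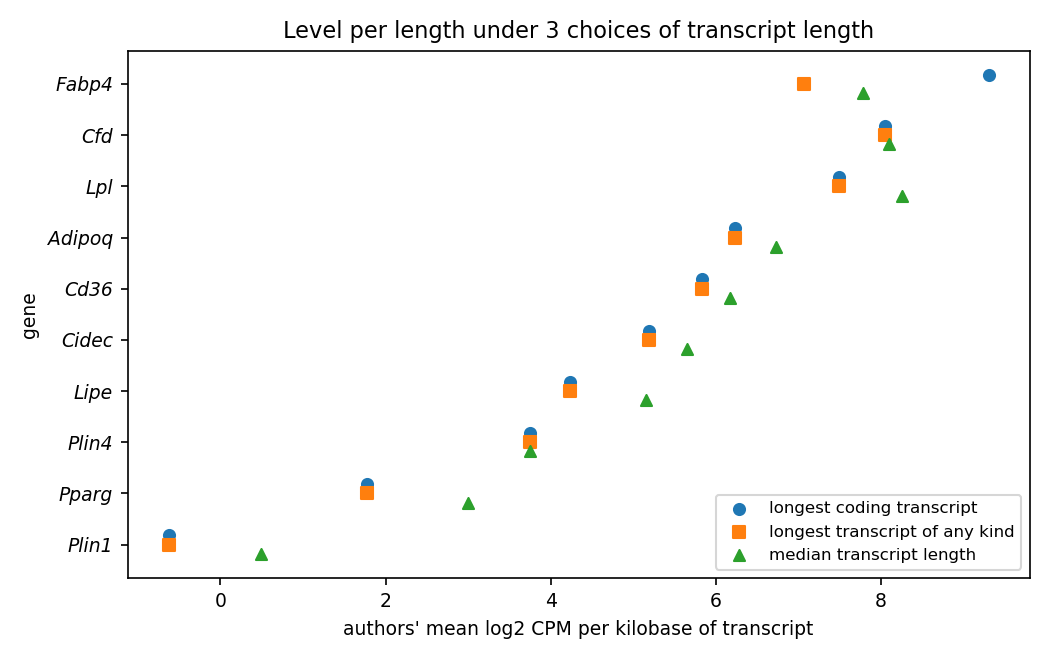
Level per length of the 10 genes (y axis) as the authors' mean log2 CPM per kilobase (x axis, log2 scale) with the longest coding transcript (circles), the longest transcript of any kind (squares) or the median transcript length (triangles). Fabp4 moved from 9.30 to 7.06 and 7.79, and Plin1 at -0.63, -0.63 and 0.49 was lowest each time.

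The order of the highest 3 genes depended on the transcript taken. With the longest transcript of any kind the order was Cfd, Lpl and Fabp4, and with the median transcript length it was Lpl, Cfd and Fabp4. The order of the other 7 genes, from Adipoq down to Plin1, stayed as given under all 3 lengths. With the longest coding transcript, the gaps between neighbours were widest between Pparg and Plin1 (5.30-fold) and between Plin4 and Pparg (3.92-fold), and smallest between Adipoq and Cd36 (1.32-fold). With the median transcript length the gap from Pparg to Plin1 was still the widest (5.66-fold), that from Plin4 to Pparg was 1.69-fold, and the smallest was between Lpl and Cfd (1.12-fold). Since the spread over samples is unknown, no pair of neighbours can be said to differ beyond it.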

How the data were processed

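Poly(A) RNA from quadriceps was sequenced in 6 samples, 3 WT and 3 GATA-1 mutant. Kallisto was run by the authors on the paired reads. The authors then assigned transcripts to genes and took CPM values from edgeR. Their filter required more than 1 CPM in 3 or more samples, and log values with TMM normalization entered limma. The submitters' processing notes name GRCm39; the Kallisto index is not given in the sources used here. Of the deposited table, only the authors' mean log2 CPM over the samples was used. Its other columns hold the authors' own genotype comparison (fold change, moderated t, p-value, adjusted p-value, log odds) and were not used. The genotype test that had been planned needs values per sample and was not run, so no depth or SD is given.

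GENCODE M21 (GRCm38) gave transcript lengths for 99.4% of genes, of which 13458 had the same symbol there and 477 were found through RefSeq synonyms. The build differs from that of the submitters' notes, and positions are those of GRCm38. A gene's level per length is its mean log2 CPM minus the log2 of its longest coding transcript in kilobases (the longest transcript where none is coding). Shared sequence is the percent of 31-base words of that transcript found in other genes on either strand. The row without a symbol was left out of ranks. The calculation was tested on simulated data. The named genes are the 10 members, a fixed set of related genes (such as Gpihbp1, Fabp3, Plin2, Cebpa, Lep and Retn), and the highest and lowest gene of each list, of either kind (pathway or cell type). One gene was left out of a pathway list and is not reported here. Ucp1 is named outside this rule and was chosen after its value was seen. The members and lists were chosen with earlier results of these data known. Python 3.11.15, pandas 2.3.3, scipy 1.17.1 and matplotlib 3.10.9 were used.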

Additional observations from a re-analysis of the deposited data

How the results depend on the processing

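No paired analysis was possible because the one column used is a mean over both genotypes. The planned fits with other limma settings, pseudocounts, filters or count tools, and those leaving out each mouse, could therefore not be run. The median position of the 10 genes, ranked by mean log2 CPM among all genes, was 88.8%. Single genes of the 10 lay from 14.2% (Plin1) to 99.2% (Lpl). The 95% Wilson interval from 88.3% to 89.3% takes all ranked genes as draws. It carries neither the spread among the 10 genes nor any error between mice. The median position was 88.6% among protein-coding genes and 91.6% ranked per kilobase. It was 88.5% when genes under 1 mean log2 CPM were dropped, which removes Plin1. Dropping those under 3, which removes Plin1 and Pparg, gave 89.6%. The median level per length was 5.51 log2 CPM per kb, and also 5.51 with the longest transcript of any kind, and 5.91 with the median transcript length. Of 20 values of single genes under these other lengths, 6 moved by over 1.5 times, among them both of Fabp4 and 1 of Plin1.
As differences in log2 CPM per kb, Fabp4 minus Fabp3 was 1.14, and -1.10 with the longest transcript of any kind and -0.38 with the median length, and Cebpb minus Cebpa was 0.10 and -0.031 with the median length. These directions turned because the lengths of Fabp4 and Cebpa change, by construction of the alternative. Fabp3 and Cebpb have 1 transcript each, so their lengths stay the same.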
